A study of Mus musculus with 5 samples.

Results

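Iron handling genes were followed across the 5 liver libraries of the series, as the 9 rows of the deposited expression table that carry the symbols Hamp, Hamp2, Trf, Tfrc, Tfr2, Slc39a14, Fth1, Ftl1 and Slc40a1, out of 46095 gene records. They were chosen by function, with earlier results of these data known, and each was above 0 in every library. RNA was sequenced from the liver of an Srsf2f/f mouse and of an HKO mouse at 2 months of age (2M), from the liver of an Srsf2f/f mouse at 12 months (12M), and from non-tumor tissue and a tumor of a mutant liver at 12M. The mice were C57BL/6, and the study asked what loss of the splicing factor Srsf2 does to the liver and how tumors arise after it. HKO mice carry floxed Srsf2 alleles and a Cre driven by the albumin promoter, which directs the deletion to hepatocytes, and the Srsf2f/f controls, named wild type in the labels, carry the floxed alleles without Cre and are called controls below. The labels give the genotype HKO8 for the 2M HKO and non-tumor libraries and no genotype for the tumor, and they carry 1 animal number for the tumor and non-tumor samples, which therefore came from the same animal. The ages are those of the titles and the study, while the sample codes of the 12M libraries begin with M13. Per the study, most HKO mice died young, the animals used are survivors, and Srsf2 protein was present again in adult HKO livers.

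Each condition is 1 library with no replicate, so no p-values are given, and every interval below is a 95% exact binomial interval that covers counting error only. The tumor, non-tumor and Srsf2f/f libraries each enter more than 1 of the 5 comparisons, whose ratios are therefore not independent of each other. Levels are given as FPKM, the fragments of a gene relative to its length and to the total of the library. Between 34969834 and 36104176 fragments per library were worked back from these values. Srsf2 itself stood at 14.6 FPKM in the 2M control, 22.7 in the 2M HKO, 15.7 in the 12M control, 17.6 in non-tumor tissue and 15.6 in the tumor, so the deletion was not visible in the total RNA of the gene. The hepatocyte gene Alb lay between 28781 and 35874 FPKM in all 5 libraries, and none of 12 hepatocyte markers was under 0.5 FPKM in any of them. A gene was called higher or lower where the log2 ratio of FPKM + 0.1 was over 1 or under -1 and either library was above 5 FPKM. More genes were called higher than lower in each comparison, at 73.3% of calls for the 2M HKO against the 2M control, 78.0% for non-tumor tissue against the 12M control, 67.8% for the tumor against non-tumor tissue, 74.2% for the tumor against the 12M control and 53.3% between the controls. With libraries rescaled by their median ratio over 9099 genes, these shares were 58.2%, 63.5%, 56.2%, 54.7% and 57.7%. The shifts removed by this rescaling were 0.25, 0.19, 0.16, 0.35 and -0.04 on the log2 scale. In bulk liver such as this, fewer cells of a type and less RNA per cell cannot be told apart.

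The liver stores iron, senses it and sets its level in the body. Hepatocytes secrete the peptide hormone hepcidin, encoded by Hamp, which binds the iron exporter ferroportin (Slc40a1) and leads to its degradation, so that less iron enters the blood from the gut and from macrophages. Hamp transcription is raised by BMP signals through SMAD proteins when iron is plentiful, and by IL6 through Stat3 in inflammation. Iron travels in blood on transferrin (Trf) and enters cells through the transferrin receptor (Tfrc), or without transferrin through Slc39a14, and what is not used is kept in ferritin, a shell of heavy (Fth1) and light (Ftl1) chains. Iron regulatory proteins bind a hairpin, the iron-responsive element, in mRNAs of several of these genes. In a 5′ untranslated region the bound hairpin holds back translation, and in the 3′ untranslated region of Tfrc it protects the mRNA from decay.

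Hamp and Hamp2 are neighbouring copies on chromosome 7 of GRCm38 (mm10), both on the minus strand. Hamp lies at chr7:30942368-30944017 and Hamp2 at chr7:30922372-30924181, with 18186 bases between them. Their promoters are shown because the genes moved apart in the tumor while the sequences before their starts are nearly alike. The windows are the 250 bases before the RefSeq start site (GRCm38.p6, minus strand), chr7:30944030-30944279 for Hamp and chr7:30924182-30924431 for Hamp2. Capitals mark GGCGCC, the letters of the proximal BMP response element of hepcidin promoters, and TTCTTGGAA, the letters of the Stat3 element.
Hamp: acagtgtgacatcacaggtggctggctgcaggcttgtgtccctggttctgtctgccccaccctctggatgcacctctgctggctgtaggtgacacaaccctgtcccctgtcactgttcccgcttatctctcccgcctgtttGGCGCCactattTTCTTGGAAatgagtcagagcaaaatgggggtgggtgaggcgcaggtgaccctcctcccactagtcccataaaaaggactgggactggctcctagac
Hamp2: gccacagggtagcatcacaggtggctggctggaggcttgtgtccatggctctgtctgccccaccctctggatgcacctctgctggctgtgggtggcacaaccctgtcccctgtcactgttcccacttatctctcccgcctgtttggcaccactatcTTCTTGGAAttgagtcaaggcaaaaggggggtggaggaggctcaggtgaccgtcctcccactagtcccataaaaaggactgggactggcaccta
Over 247 aligned bases, 227 were identical and 20 differed. Hamp held GGCGCC at bases -109 to -104 from its start site, where Hamp2 differed by the substitution G4A, with Hamp first and positions counted from 1 at the 5′ end of the element. TTCTTGGAA stood at bases -97 to -89 in Hamp and -94 to -86 in Hamp2. Searched on both strands in 250 bases before 32851 RefSeq start sites, GGCGCC was present in 9.59% and TTCTTGGAA in 0.365%. Of the 9 members, 6 had a RefSeq promoter, and besides Hamp only Tfrc among them held GGCGCC, at bases -89 to -84. The motifs do not overlap, and a match describes the letters only.

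The iron-responsive elements are shown because they are a known means of control after transcription, a step that RNA levels of the ferritin and ferroportin genes do not read. A match describes only the letters and pairing in the transcript searched, and other transcripts of a gene were not searched. Each run is 30 bases of a transcript in the GENCODE annotation of GRCm38, with the 6 bases of the loop in capitals. The search asked for a C, then 5 bases, the loop CAGTGN, and 5 bases that pair with the first 5. It was run on the strand of the transcript.
Fth1: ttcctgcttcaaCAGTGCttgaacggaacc
Ftl1: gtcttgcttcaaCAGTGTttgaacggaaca
Slc40a1: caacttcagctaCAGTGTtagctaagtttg
Tfrc element A: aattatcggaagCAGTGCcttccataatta
Tfrc element B: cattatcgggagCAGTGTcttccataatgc
Tfrc element C: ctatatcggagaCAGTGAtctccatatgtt
Tfrc element D: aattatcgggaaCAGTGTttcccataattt
Fth1 and Ftl1 carried it in the 5′ untranslated region at chr19:9982732-9982761 on the plus strand and chr7:45459778-45459807 on the minus strand, and Slc40a1 at chr1:45925464-45925493 on the minus strand. The 4 elements found in Tfrc lie in its 3′ untranslated region on the plus strand, at chr16:32631219-32631248, chr16:32631598-32631627, chr16:32631663-32631692 and chr16:32631710-32631739. Their labels A to D only give the order along the transcript. An element with another loop or an unpaired base in the stem would be missed by this search, so the count may not be complete. Fth1 and Ftl1 share the letters around the loop, while the elements of Tfrc differ from these and among themselves in the bases of the stem. No match was found in the transcripts searched for the other members, and 237 of 21291 protein-coding transcripts searched the same way (1.11%) held one.

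The hormone genes gave the largest ratios of the group. Hamp stood at 1295 FPKM in the 2M control, 2112 in the 2M HKO, 322 in the 12M control, 379.8 in non-tumor tissue and 15.4 in the tumor, from 17889, 30117, 4464, 5298 and 220 fragments. The 2M livers were highest, the 12M control and the non-tumor tissue lay close together, and the tumor was far under all of them. By FPKM, Hamp ranked 26 among all gene records in the 2M HKO, 159 in non-tumor tissue and 3544 in the tumor. In the tumor its level was 24.6-fold lower than in the non-tumor tissue of the same animal (21.5 to 28.3), and 66 of 7618 genes tested had a lower ratio. Against the 12M control it was 20.8-fold lower (18.2 to 24.0). The level in the 2M HKO was 1.63-fold that of its control (1.60 to 1.66), a log2 ratio of 0.71, which is between the thresholds. Non-tumor tissue differed little from the 12M control, at 1.18-fold (1.13 to 1.23).

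Hamp also separated the control livers. It was 4.03-fold lower at 12M than at 2M (3.90 to 4.16), and 23 of 6114 genes tested had a lower ratio. Of the 9 members, 1 was lower between the controls and none higher, where 2.09% of all genes were called lower and 2.39% higher. Both controls are single animals, and age, the day of collection and the animal cannot be told apart.

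Hamp2, whose product did not act on iron in transgenic mice, followed another order. It stood at 31.7 FPKM in the 2M control, 52.0 in the 2M HKO, 17.97 in the 12M control, 6.80 in non-tumor tissue and 43.9 in the tumor, from 485, 820, 276, 105 and 692 fragments. The tumor was thus near the top of the range, and non-tumor tissue at the bottom. Tumor tissue had 6.45-fold the level of non-tumor tissue (5.24 to 7.99) and 2.44-fold that of the 12M control (2.12 to 2.82). Relative to the scaling shift the second ratio was 0.93 on the log2 scale, under the threshold. In non-tumor tissue Hamp2 was 2.64-fold lower than in the 12M control (2.10 to 3.34), and 61 of 6481 genes tested had a lower ratio. At 2M it was 1.64-fold higher in the HKO liver (1.46 to 1.84), close to the 1.63-fold of Hamp.

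The balance between the copies therefore turned over in the tumor. Hamp2 fragments made up 2.71% of the number of Hamp fragments in the 2M control, 2.72% in the 2M HKO, 6.18% in the 12M control and 1.98% in non-tumor tissue. In the tumor they were 315% of it (270 to 368). The sum of both genes was 1327, 2164, 340 and 387 FPKM in the first 4 libraries and 59.3 FPKM in the tumor, so the gain of Hamp2 did not make up for the loss of Hamp. On this sum the log2 ratio of the tumor to non-tumor tissue was -2.70. The transcripts are 94.6% identical over 410 aligned bases, and 37.8% of 25-base windows of Hamp2, 15.5% of 50-base windows, 3.58% of 75-base windows and 0 of 338 windows of 100 bases occur unchanged in Hamp, so the split of fragments between them is uncertain. Usf2, which lies next to Hamp on the side away from Hamp2, stood at 15.2 FPKM in non-tumor tissue and 16.9 in the tumor. Lsr, the gene after it, stood at 155 and 319 FPKM, a log2 ratio of 1.04. Genes on chromosome 7 had a median log2 ratio of 0.51 in this comparison (633 genes), beside 0.23 over all genes. Relative to the chromosome median Lsr would be under the threshold.

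**Figure D1:**
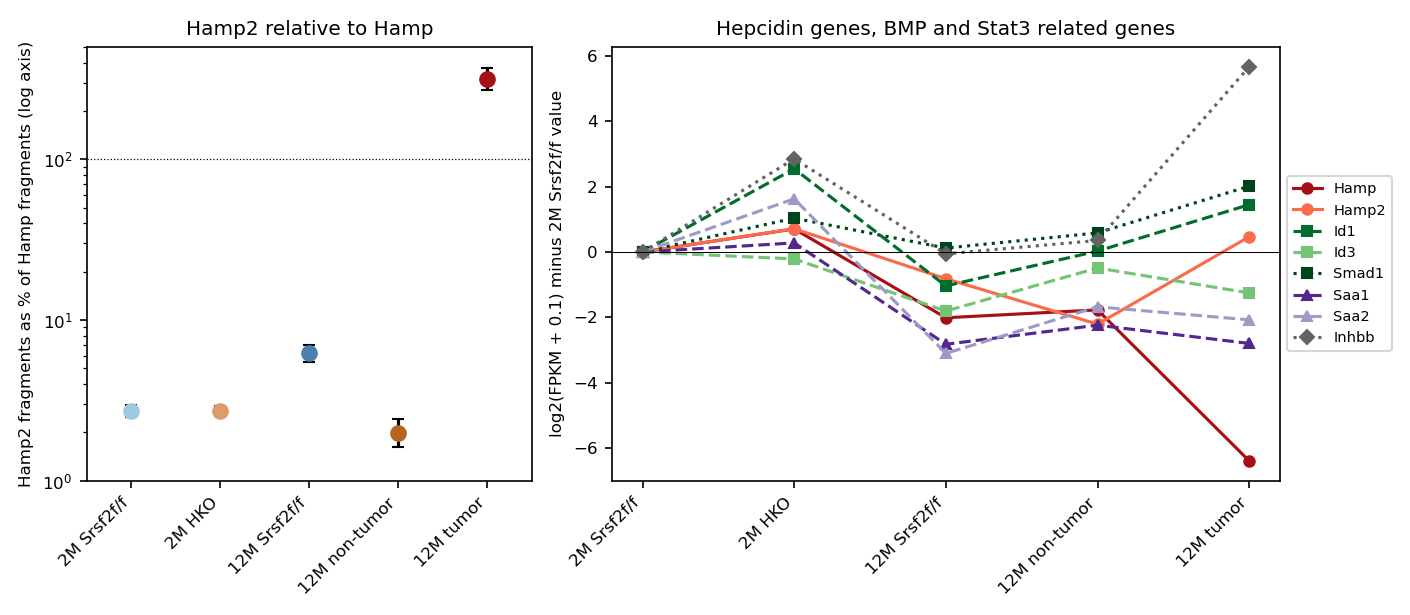
Left, Hamp2 fragments as a percent of Hamp fragments in each library (log axis, bars are 95% exact intervals for counting error, dotted line at 100%). Right, log2(FPKM + 0.1) of each gene minus its value in the 2M control, 1 library per point, with lines that only guide the eye. Hamp2 was between 1.98% and 6.18% of Hamp in 4 libraries and 315% in the tumor, where Hamp is the lowest line on the right.

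Genes whose pattern over the 5 libraries was most like that of Hamp were sought among 7731 genes over 5 FPKM in at least 1 library, by the root mean square difference of centred log2 values. The nearest were Timd4 at 0.60, Folr2 at 0.64 and Fpr1 at 0.67. These are wide distances beside those of the nearest genes of Trf and Tfrc given below. The distance is not scaled to the range of a gene, which was 137-fold for Hamp, 3.34-fold for Trf and 2.22-fold for Tfrc. In the tumor Timd4 stood at 0 FPKM, Folr2 at 0.06 and Fpr1 at 0.02. Their tumor values on the log2 scale therefore rest largely on the 0.1 FPKM added, and other pseudocounts were not run for this search. Timd4 and Folr2 are markers of Kupffer cells, the resident macrophages of the liver. Of 8 Kupffer cell markers, 7 were under 0.5 FPKM in the tumor and none in any other library, and Clec4f stood at 32.5 FPKM in non-tumor tissue and 0.01 in the tumor. The exception was C6, which hepatocytes also express, at 107 FPKM. For tumor against non-tumor tissue, 5 of the 6 over the minimum were lower and 0 higher, where 8.43% of all genes were called lower and 17.7% higher. Without C6, the summed level of the other 7 was 172, 720.0, 132, 132 and 0.61 FPKM in the order of the libraries above, and with it 294, 751, 240, 293 and 107. Hepatocyte markers summed to 63556 FPKM in non-tumor tissue and 52135 in the tumor, where 2 of 12, Ass1 and Cps1, were called lower. The part of these cell types in the level of Hamp was not tested.

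The genes known to control Hamp include some that raise it and some, such as Tmprss6, that lower it. A count of their directions therefore does not read the state of this control. Of 18 hepcidin control genes in the table, 9 passed the minimum for tumor against non-tumor tissue, with 2 higher, 1 lower and a median log2 ratio of 0.55. The median over all genes tested was 0.23, and 17.7% of them were higher and 8.43% lower, so these counts are near the background. Bmp6, the ligand that reports liver iron and is made mainly by sinusoidal endothelium, stood at 2.01 FPKM in non-tumor tissue and 8.02 in the tumor (log2 ratio 1.94). Smad1, which carries the BMP signal to the nucleus, was higher as well, at 6.51 and 17.7 FPKM (1.43). Hfe, the hemochromatosis protein, was lower, at 23.5 and 11.1 FPKM (-1.08). Hemojuvelin, the BMP co-receptor listed under its older symbol Hfe2, stood at 13.4 FPKM in the 2M control against 39.5 in the 2M HKO, 36.4 in the 12M control, 43.3 in non-tumor tissue and 48.0 in the tumor. The 2M control was the low library for this gene. Tmprss6, the protease that cuts hemojuvelin and lowers hepcidin, lay between 131 and 277 FPKM and was called in no comparison. Of the 9 markers of sinusoidal endothelium other than Bmp2 and Bmp6, 4 were lower, 1 higher and 2 between the thresholds. These 9 summed to 83.8 FPKM in non-tumor tissue and 34.7 in the tumor, and the part of this cell type in the level of Bmp6 was not tested.

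Targets of the BMP signal were measured as well. Id1 stood at 8.29 FPKM in the 2M control, 48.7 in the 2M HKO, 3.99 in the 12M control, 8.44 in non-tumor tissue and 22.7 in the tumor. Its log2 ratio of tumor to non-tumor tissue was 1.42, with the sign opposite to that of Hamp. Id3, at 64.0 and 37.7 FPKM in these tissues, had a log2 ratio of -0.76, between the thresholds. Of 4 BMP targets that passed the minimum, 1 was higher and 0 lower, beside 17.7% and 8.43% of all genes, and 1 of 4 is near the background. Smad6, an inhibitor induced by the signal, stood under the minimum at 4.58 and 0.80 FPKM. Between the controls, 2 of 3 BMP targets over the minimum were lower at 12M, Id3 (-1.80) and Id1 (-1.04), and 0 were higher. Over all genes, 2.09% were lower and 2.39% higher. Id2 was between the thresholds at -0.19. Under the minimum, Smad7 stood at -1.08, Atoh8 at 0.21 and Smad6 at 1.24. Hemojuvelin (Hfe2) was called higher, at 1.44.

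On the inflammatory side, Il6 was at or under 0.10 FPKM in all 5 libraries. Among 9 genes of the IL6 and Stat3 list over the minimum for tumor against non-tumor tissue, 1 was higher and 1 lower, with a median log2 ratio of -0.40. This is near the 17.7% and 8.43% of all genes, whose median was 0.23. Inhbb, the activin B subunit that can drive hepcidin in mice, stood at 0.65 FPKM in non-tumor tissue and 29.4 in the tumor (5.31). Crp, which encodes C-reactive protein, stood at 189 and 57.8 FPKM (-1.70). Socs3, a target of Stat3, did not differ by the rule between these tissues, at 24.4 and 23.9 FPKM, and both were far above the 1.99 FPKM of the 12M control. The serum amyloid genes, acute phase genes like Hamp, differed between the controls, with Saa1 at 794 FPKM at 2M and 112 at 12M (-2.82) and Saa2 at 422 and 49.1 (-3.10). They were the 2 called lower of 7 genes of this list over the minimum, with 0 higher. Over all genes, 2.09% were lower and 2.39% higher. Crp did not differ by the rule there, at 265 FPKM at 2M and 251 at 12M (-0.08). Saa1 and Saa2 are near-identical copies, between which fragments are uncertain.

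Transferrin was the member called at 2M. Trf, at chr9:103208876-103230286, stood at 5897 FPKM in the 2M control, 19535 in the 2M HKO, 5842 in the 12M control, 8849 in non-tumor tissue and 6837 in the tumor. The controls of both ages were alike, at a ratio of 0.991 (0.987 to 0.995), and the 2M HKO stood apart from the other 4 libraries. There, Trf took 4.56% of all fragments, against 1.38% in the control, and moved from rank 11 to rank 2 among all gene records. The ratio was 3.31 (3.30 to 3.32), or 1.48 on the log2 scale relative to the scaling shift. Non-tumor tissue had 1.51-fold the level of the 12M control (1.51 to 1.52), between the thresholds. The genes nearest to the pattern of Trf were Hpse at a root mean square difference of 0.03, Prcp at 0.10 and Acer2 at 0.13.

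Of the 9 members, 1 was higher and 0 were lower in the 2M HKO, where 19.2% of all genes were called higher and 6.98% lower. The members' median log2 ratio was 0.58, beside 0.23 over all 7220 genes tested. A share of 1 in 9 is thus not above the background. Some other plasma protein genes were also called higher, and these were picked after their values were seen. Haptoglobin (Hp), which binds hemoglobin, was at 2080 and 7775 FPKM in the 2M control and the 2M HKO (1.90), and hemopexin (Hpx), which binds heme, at 3364 and 11660.2 (1.79). Ceruloplasmin (Cp), the copper oxidase that loads iron onto transferrin, was at 142 and 585 FPKM (2.05). The fibrinogen genes Fga and Fgb, which are in none of the iron lists, had log2 ratios of 1.14 and 1.15. The remaining fibrinogen gene, Fgg, was between the thresholds at 0.92. Relative to the scaling shift of 0.25, Fga and Fgb would be between them as well. Of the 12 hepatocyte markers, which include the fibrinogen genes, 2 were higher, 1 lower and 9 between the thresholds, with a median of -0.26. Not every abundant plasma protein gene was higher, and transthyretin (Ttr) stood at 5017 and 1925 FPKM (-1.38).

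**Figure D2:**
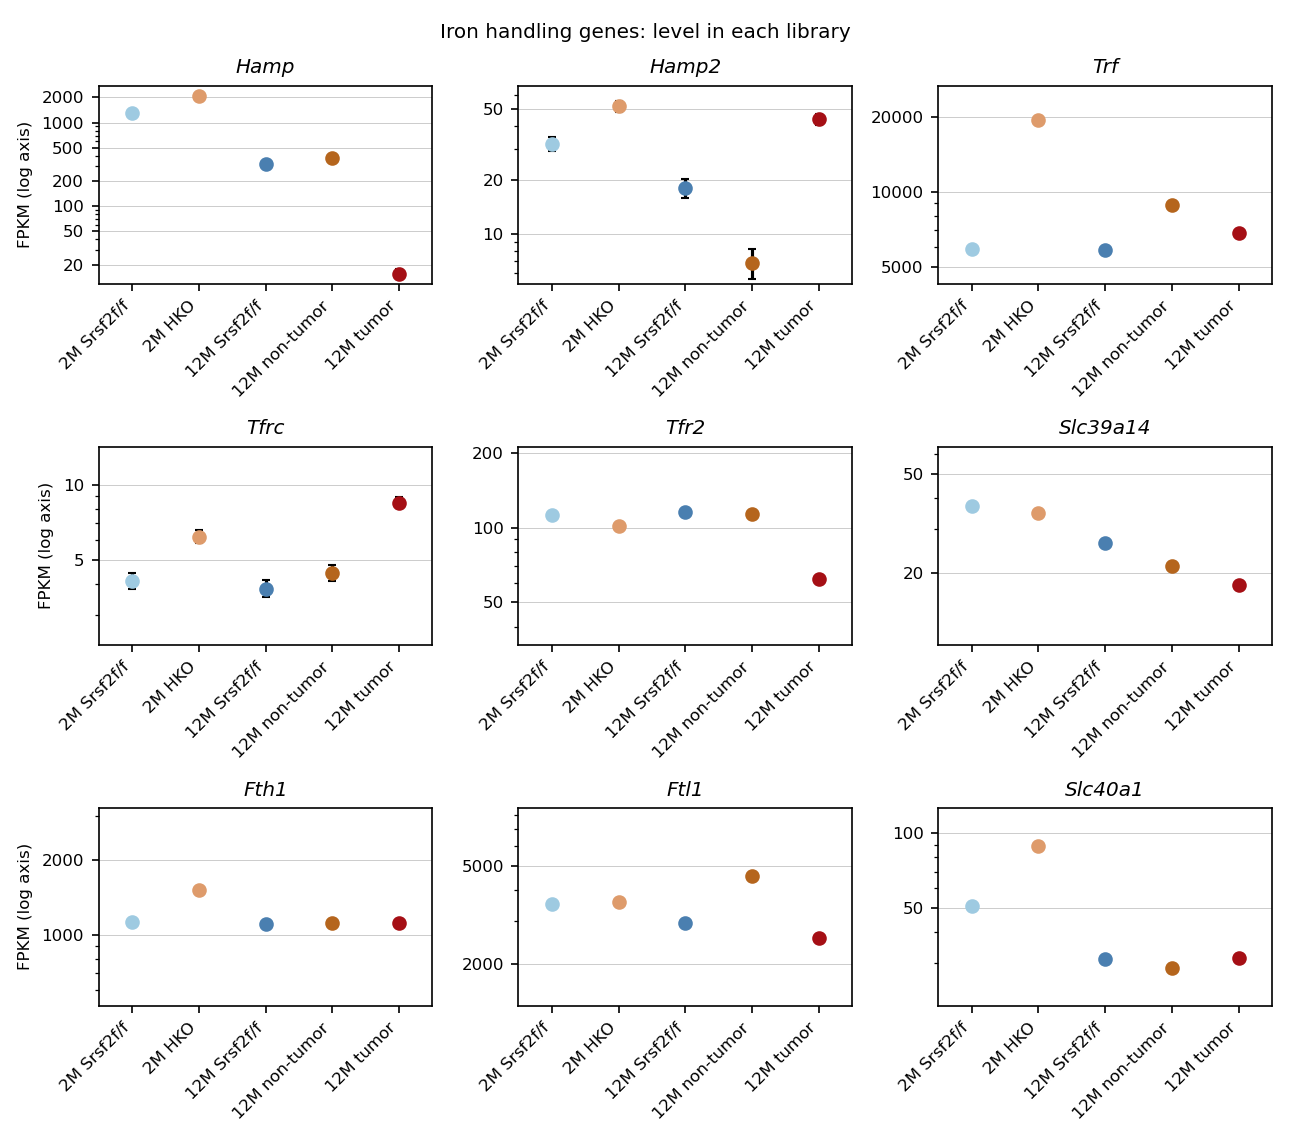
FPKM of each member in each of the 5 libraries (log axis with its own range per panel, 1 library per point, bars are 95% exact binomial intervals for counting error and mostly lie within the points). Trf and Slc40a1 are highest in the 2M HKO, Hamp is at 15.4 FPKM in the tumor, and Fth1 lies between 1106 and 1520.4 FPKM throughout.

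The transferrin receptors had log2 ratios of opposite sign for tumor against non-tumor tissue, 0.92 for Tfrc and -0.88 for Tfr2, neither of them past a threshold. Tfrc, at chr16:32608896-32632794, stood at 4.11 FPKM in the 2M control, 6.19 in the 2M HKO, 3.82 in the 12M control, 4.43 in non-tumor tissue and 8.47 in the tumor. Its level was low in all of them and highest in the tumor, at 2.22-fold the 12M control (2.02 to 2.43), which was called, and 1.91-fold non-tumor tissue (1.75 to 2.09), which was not. Relative to the scaling shift the first log2 ratio was 0.78, under the threshold. Genes on chromosome 16 had a median log2 ratio of 0.81 for tumor against non-tumor tissue (238 genes), 0.58 above that of all genes, and relative to this median Tfrc stood at 0.11. Against the 12M control it stood at 0.16 relative to the chromosome median of 0.97, so its call there ended. The 14 markers of dividing cells, in which Tfrc is known to be high, summed to 9.23, 119, 5.003, 13.9 and 23.4 FPKM in the order of the libraries above, and their part in the level of Tfrc was not tested. Zc3h7b at 0.04, Msh6 at 0.04 and Chrac1 at 0.05 were the genes nearest to its pattern.

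Tfr2, the second receptor, which hepatocytes use to sense transferrin iron on the way to Hamp, lies at chr5:137569821-137588081. It stood at 112 FPKM in the 2M control, 101 in the 2M HKO, 116 in the 12M control, 114 in non-tumor tissue and 61.9 in the tumor. The other 4 libraries lay close together, and the tumor was 1.84-fold lower than non-tumor tissue (1.79 to 1.89). This log2 ratio of -0.88 was between the thresholds, and relative to the scaling shift it was -1.04, past the lower one. The level of Tfr2 was 27.3, 16.3, 30.2 and 25.7 times that of Tfrc in the first 4 libraries and 7.31 times in the tumor, on FPKM. Slc39a14, the carrier of iron not bound to transferrin, at chr14:70303467-70351424, stood at 37.0, 34.7, 26.4, 21.4 and 17.8 FPKM in the same order. It was highest in the 2M livers and lowest in the tumor, and its ratio was between the thresholds in all 5 comparisons.

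Other genes of iron uptake were counted by the same rule. Of 10 such genes over the minimum, 5 were higher and 0 lower in the 2M HKO, and of 9, 4 were higher and 1 lower in the tumor against non-tumor tissue. Over all genes, 19.2% were higher and 6.98% lower in the former comparison, and 17.7% and 8.43% in the latter. Lcn2, an acute phase protein that binds iron-carrying siderophores, stood at 28.6 FPKM in the 2M control, 3182 in the 2M HKO, 14.9 in the 12M control, 116 in non-tumor tissue and 2118 in the tumor. Steap3, a reductase of endosomal iron, stood at 12.7 FPKM in non-tumor tissue and 45.7 in the tumor (1.84). Slc11a2, the transporter DMT1 that moves this iron into the cytosol, was at 13.7 and 34.8 FPKM (1.33), and Steap4, a related reductase, at 84.9 and 190 (1.16). The zinc and iron carrier gene Slc39a8 was the one called lower, at 6.24 and 2.77 FPKM (-1.15).

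The ferritin chains differed in how steady they were. Fth1, at chr19:9980600-9985111, stood at 1123 FPKM in the 2M control, 1520.4 in the 2M HKO, 1106 in the 12M control, 1118 in non-tumor tissue and 1119.6 in the tumor. Apart from the 2M HKO, at 1.35-fold its control (1.34 to 1.37), these values lay between 1106 and 1123 FPKM. The ratio of the tumor to non-tumor tissue was 1.001 (0.990 to 1.01), in a comparison where the rule called 17.7% of all genes higher and 8.43% lower. Ftl1, at chr7:45457944-45459886, stood at 3495, 3562, 2931, 4549 and 2557 FPKM in the same order. It was highest in non-tumor tissue, at 1.55-fold the 12M control (1.54 to 1.56), and 1.78-fold lower in the tumor than there (1.76 to 1.79). Both ratios were between the thresholds. Ftl1 had 4.07 times the FPKM of Fth1 in non-tumor tissue and 2.28 times in the tumor, with 3.11, 2.34 and 2.65 times in the other libraries. Both genes have processed copies, and the listed copy Ftl1-ps1 held 0.553% to 0.643% of the FPKM of Ftl1, so fragments from near-identical copies are uncertain.

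For tumor against non-tumor tissue, 1 of 9 members was called higher (Hamp2), 1 lower (Hamp) and 7 were between the thresholds, beside the 17.7% and 8.43% of all genes. Against the 12M control, 2 were higher in the tumor (Hamp2 and Tfrc) and 1 lower (Hamp), where 27.4% of all genes were called higher and 9.49% lower. In non-tumor tissue against that control, 0 were higher and 1 lower (Hamp2), where 6.14% of all genes were called higher and 1.73% lower, and Tfrc was under the minimum. The members' medians were -0.26, 0.02 and 0.02 on the log2 scale in these comparisons, beside 0.23, 0.43 and 0.14 over all genes tested. Both tumor comparisons thus called a share of the members near that of all genes, and in non-tumor tissue a single member was called.

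**Figure D3:**
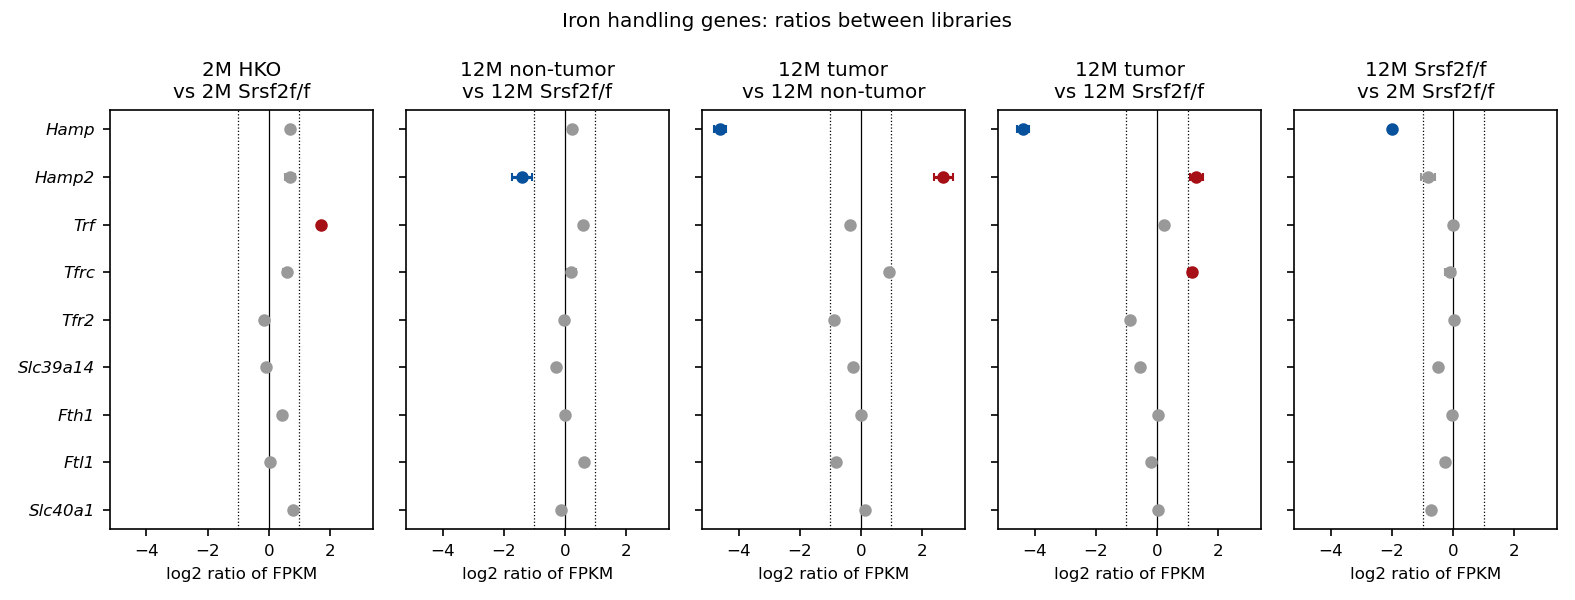
log2 ratio of FPKM for each member in the 5 comparisons (bars are 95% exact binomial intervals for counting error, dotted lines at -1 and 1, red called higher, blue called lower, grey not called). Hamp lies at -4.61 and Hamp2 at 2.67 for tumor against non-tumor tissue, and Trf at 1.73 in the 2M HKO.

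Ferroportin, the exporter on which hepcidin acts, was lower in the 12M libraries and highest in the 2M HKO. Slc40a1, at chr1:45908070-45926536, stood at 51.1 FPKM in the 2M control, 89.1 in the 2M HKO, 31.1 in the 12M control, 28.7 in non-tumor tissue and 31.6 in the tumor. The 12M libraries lay close together and under the 2M libraries, the tumor included, where Hamp was lowest. The ratio of the tumor to the 12M control was 1.02 (0.971 to 1.06). The 2M HKO had 1.74-fold the level of its control (1.69 to 1.80), and the 12M control was 1.64-fold lower than the 2M control (1.58 to 1.71). All 5 ratios were between the thresholds. Kupffer cells, which recover iron from red cells, are known to express Slc40a1, and the marker sums given above were highest in the 2M HKO and lowest in the tumor. The 12 markers of macrophages in general, which also express it, summed to 114, 1003, 103, 294 and 429 FPKM in the same order. For tumor against non-tumor tissue, 3 of the 9 over the minimum were higher and 1 lower, beside 17.7% and 8.43% of all genes. The part of either cell type in the level of Slc40a1 was not tested. The genes nearest to its pattern were Tle4 at 0.15, Orm1 at 0.15 and Irf5 at 0.16.

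Beyond the members, 100 of 105 other iron genes from 10 lists by role were in the table. Heme synthesis genes had no call in the higher direction in any comparison. In the tumor 3 of 11 were lower than in non-tumor tissue, with a median log2 ratio of -0.60, and 5 of 11 were lower than in the 12M control, with a median of -0.93. Over all genes 8.43% and 9.49% were lower in these comparisons, with medians of 0.23 and 0.43. Tmem14c, which moves heme precursors in mitochondria, stood at 99.3 FPKM in non-tumor tissue and 37.6 in the tumor (-1.40), and Abcb10, a mitochondrial transporter, at 11.4 and 3.26 (-1.77). Alas2, the heme synthesis enzyme of red cell precursors, was the other one, at 81.2 and 31.8 FPKM (-1.35). Alas1, the first enzyme of the pathway in the liver, stood at 392 FPKM in the 2M control, 309 in the 2M HKO, 86.2 in the 12M control, 86.3 in non-tumor tissue and 74.3 in the tumor. Its log2 ratio was -2.18 between the controls and -0.22 for tumor against non-tumor tissue, the latter between the thresholds. As for Hamp, age, the day of collection and the animal cannot be told apart in the controls.

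Recovery of heme and hemoglobin had 4 of 11 genes higher and 0 lower in the 2M HKO, beside 19.2% and 6.98% of all genes. Besides Hp and Hpx these were Hmox1, which opens the heme ring and frees its iron, at 24.2 and 118 FPKM (2.28), and the heme transporter gene Slc48a1 at 22.1 and 61.2 (1.47). Hmox1 was not higher in the tumor, at 23.4 FPKM in non-tumor tissue and 17.5 in the tumor, whereas Slc48a1 was, at 42.6 and 141 (1.73). Of 15 red cell genes, 8 were under 0.5 FPKM in every library, and of the 5 over the minimum 4 globin genes were higher and Alas2 lower both in the 2M HKO and in the tumor against non-tumor tissue. Without Alas2 they summed to 206, 670.3, 271, 265 and 1380.4 FPKM in the order of the libraries above, and their part in these levels was not tested. Of 5 genes of the iron regulatory protein system, 1 was called, in 1 of the 5 comparisons, namely Aco1, which encodes iron regulatory protein 1, at 70.6 FPKM in the 12M control and 31.8 in the tumor (-1.15), in a comparison where 9.49% of all genes were lower. For tumor against non-tumor tissue none of 12 iron-sulfur assembly genes and none of 5 genes of ferritin delivery and turnover was called, with median log2 ratios of -0.35 and 0.06, beside a median of 0.23 over all genes, of which 17.7% were higher and 8.43% lower.

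**Figure D4:**
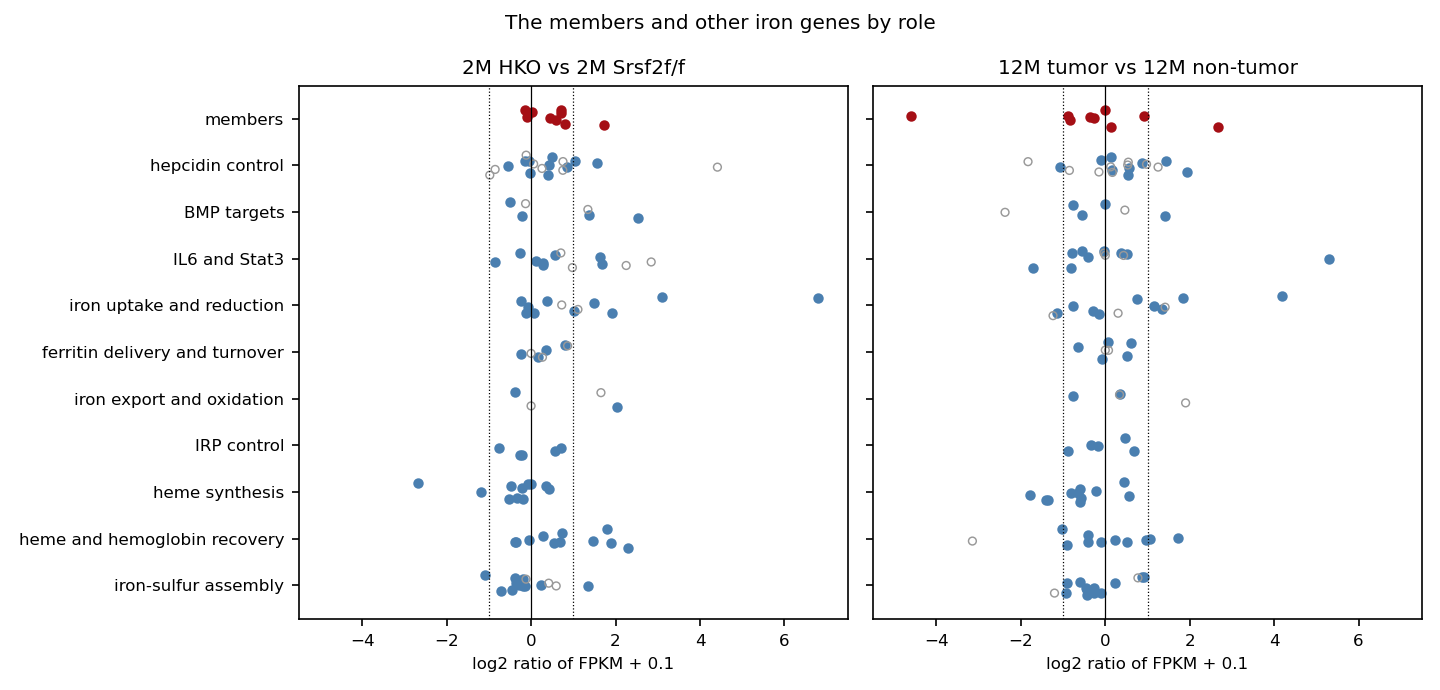
log2 ratio of FPKM + 0.1 of each member (red) and each other iron gene by role (blue, hollow where under the minimum of 5 FPKM) for the 2M HKO against the 2M control (left) and for tumor against non-tumor tissue (right), with dotted lines at -1 and 1 and points spread vertically for clarity. Heme synthesis genes have a median of -0.60 on the right, and Hamp is the lowest point at -4.61.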

How the data were processed

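RNA of mouse liver was sequenced by the authors in 5 libraries, 1 per condition, with the tumor and non-tumor libraries from the same animal. The authors deposited FPKM for 46095 gene records, with lengths and GRCm38 coordinates. The submitters' processing notes name Bowtie 0.12.2 and GRCm38, and the counter and annotation are not given in the sources used here. Fragments were worked back from the smallest unit of FPKM times length in each library, and 98.7% to 98.8% of the nonzero values came out whole with a tolerance of 0.01. Between 58.8% and 61.0% of fragment counts from 2 to 21 were even, so the reads of a pair may have been counted separately and intervals may be too narrow. Ratios are log2 of FPKM + 0.1, with the study's fold and FPKM thresholds and without its EBSeq p-values, since 1 library per group gives no estimate of the spread between animals. Intervals are exact binomial (Clopper-Pearson). The members and lists were chosen with earlier results of these data known. Genes outside the members were named by a rule, up to 4 per list with the largest ratios among those called in a comparison, and the 3 nearest in pattern to Hamp, Trf, Tfrc and Slc40a1. Usf2, Lsr, marker genes, Ttr, Fga, Fgb, Fgg, Tmprss6, Il6, Id2, Smad6, Smad7 and Slc39a8 were named beside these after their values were seen. The fold rule and the intervals were tested on simulated data. Alternatives covered the pseudocount, the FPKM minimum, rescaling, TPM, summed copies, chromosome medians and the interval, and the fragments halved, which was added after seeing the data. The tools were scipy 1.17.1, pandas 2.3.3, numpy 2.4.6 and matplotlib 3.10.9 under Python 3.11.15. The microarray, protein and methylation data of the study were not analysed here.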

Additional observations from a re-analysis of the deposited data

Results flagged for a closer look

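Hamp2 had a log2 ratio of mutant to control of 0.71 at 2M and of -1.39 at 12M in non-tumor tissue, a difference of 2.10. It stands here because the libraries of the 2 ages moved in opposite directions. Each ratio rests on 1 library against 1, and the difference was not tested. The level in non-tumor tissue comes from 105 fragments, and the call at 12M ended with fragments halved and the whole interval required past 2-fold. The split of fragments between Hamp2 and Hamp is uncertain in every library.

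Slc40a1 had a log2 ratio of mutant to control of 0.80 at 2M and of -0.11 in non-tumor tissue at 12M, a difference of 0.91, with opposite signs at the 2 ages. Neither ratio passed the threshold, and this difference was not tested either.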

How the results depend on the processing

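Hamp was called lower in the tumor, and lower between the controls, under every alternative run. Trf was called higher at 2M in all of them as well. With the copies Hamp and Hamp2 summed, the members called for non-tumor tissue against the 12M control went from 1 to 0, and those for tumor against non-tumor tissue from 2 to 1, since Hamp2 then has no value of its own. With fragments halved, an alternative chosen after seeing the data, and the whole interval required past 2-fold, 0 were called for non-tumor tissue against the 12M control and 1 of 3 (Hamp) for the tumor against it. Relative to the median of their own chromosome, 4 were called for tumor against non-tumor tissue, with Tfr2 and Ftl1 lower besides Hamp and with Hamp2 higher. Against the 12M control the chromosome medians took Hamp2 from 1.28 to 0.52 and Tfrc from 1.13 to 0.16, which ended both calls, and Tfr2 was lower at -1.35. Rescaling by the median ratio added Tfr2 as lower there, and against the 12M control it left Hamp and Tfr2 as lower and ended the calls of Hamp2 and Tfrc. A pseudocount of 1 FPKM ended the call of Tfrc in that comparison. Rescaling changed the sign of 9 of 45 ratios, chromosome medians 6 and TPM 2, none of them called. No paired analysis was possible because each condition has 1 library. The lowest counts were the 105 Hamp2 fragments in non-tumor tissue and the 220 Hamp fragments in the tumor, and differences between animals are not covered by any interval.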
